A study of Danio rerio with 12 samples.

Results

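The genes described here are neuronal synapse and transmitter genes: components of synaptic vesicles, the neuronal cytoskeleton, transmitter synthesis and transport, receptors, calcium binding and neuropeptides. They were chosen by gene symbol, from a list of 36, and each array probe was assigned to a gene through its RefSeq accession. Of the 36 listed genes, 33 had at least 1 probe. Current annotation divides cplx2 into cplx2a and cplx2b and calls vamp1 vamp1a, so 34 genes with 76 probes were measured. The array was counted as 28550 genes, of which 12858 carried a gene symbol. Probes without a symbol were grouped by the identifier the array gives, and each identifier was counted as a gene. No probe matched syt1a, sv2a or stx1a, which were not analysed here.

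Neurons release transmitter when calcium enters the nerve terminal and vesicles fuse with its membrane. SNARE proteins on the vesicle (VAMP) and on the terminal membrane (SNAP-25 and syntaxin) drive the fusion, and complexins and synaptotagmins time it. Glutamate, GABA, glycine, monoamines and acetylcholine each need their own synthetic enzymes or transporters, and mRNAs of these proteins mark classes of neurons in the larval brain and spinal cord. Liver X receptors (LXR) are nuclear receptors for oxysterols that switch on genes of cholesterol export and fatty acid synthesis. T0901317 and GW3965 are synthetic LXR agonists.

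Whole zebrafish larvae of the WIK strain were exposed from day 4 to day 6 after fertilisation, with the medium renewed at 24 h. The T0901317 group received 2 mM of the agonist and the GW3965 group 1 mM, as the labels write these doses, and the DMSO group received vehicle alone. All groups carried 0.1% DMSO, and each sample was RNA from a pool of 30 larvae. The values come from 3 T0901317, 4 GW3965 and 4 DMSO arrays, since T0901317 replicate 2 was left out by the submitters. Because the labelled doses of the agonists differ, the contrast between them compares these 2 treatments as given and not the compounds at equal dose.

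Each value below is a relative signal: the processed intensity of a gene's brightest probe divided by the 75th percentile of its array. It compares arrays for 1 gene and does not compare genes with each other. Differences are in log2 units from a limma fit over 23645 genes, with Benjamini-Hochberg adjusted p-values and a threshold of 0.05. Of these, 12097 carried a gene symbol, and every share of all genes below includes those with and without a symbol. All 34 genes were well above background on all 11 arrays. In whole larvae, fewer neurons and less RNA per neuron cannot be told apart. Each treatment had its arrays on a slide of its own, scanned once, and an effect of the slide cannot be told apart from that of the treatment.

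The treatments were visible in genes known to respond to LXR agonists. The fatty acid desaturase gene fads2 was higher by 4.14 ± 0.11 under T0901317 and by 3.96 ± 0.11 under GW3965 (log2 ± SE against DMSO, adjusted p = 3.32e-08 and 2.34e-08). The sterol exporter gene abcg1 was higher by 1.19 and 1.1, and mylipa, whose product marks the LDL receptor for breakdown, by 1.52 and 1.52.

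Few neuronal synapse and transmitter genes passed the test, as was so for genes in general. With 34 genes, counts this small do not mark them off from all genes. In T0901317 against DMSO larvae, 0 of 34 genes passed the test, where 2.58% of all genes did, and 1 of 34 had an unadjusted p under 0.05, where 14.9% of all genes did. In GW3965 against DMSO larvae, 1 of 34 passed, cplx2b, which was lower, where 5.69% of all genes passed and 4.47% were lower. Another 3 genes, elavl3, nrxn1a and npy, had an unadjusted p under 0.05 there. With cplx2b these were 4 of 34, or 11.8%, where 19.6% of all genes had such a p. In T0901317 against GW3965 larvae, 1 of 34 passed, again cplx2b, which was higher, where 5.4% of all genes passed and 5.26% were higher. An unadjusted p under 0.05 was found for 2 of 34 in that contrast, or 5.88%, where 13.5% of all genes had one. The DMSO arrays serve both agonist contrasts, and the GW3965 arrays serve 2 of the 3 contrasts.

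The median difference over the 34 genes was -0.01 in T0901317 against DMSO, with a range of -0.16 to 0.43, beside a median of 0.04 over all genes. In GW3965 against DMSO it was 0.06, with a range of -0.52 to 0.54, beside 0.01 over all genes. In T0901317 against GW3965 it was -0.05, with a range of -0.31 to 0.73, beside 0.01 over all genes. The 95% confidence interval lay within a 2-fold change for 34 of 34 genes in every contrast. It lay within a 1.41-fold change for 32 genes in T0901317 against DMSO, 27 in GW3965 against DMSO and 29 in T0901317 against GW3965. A gene that missed the threshold is therefore bounded by its interval and is not shown to be equal between groups.

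**Figure D1:**
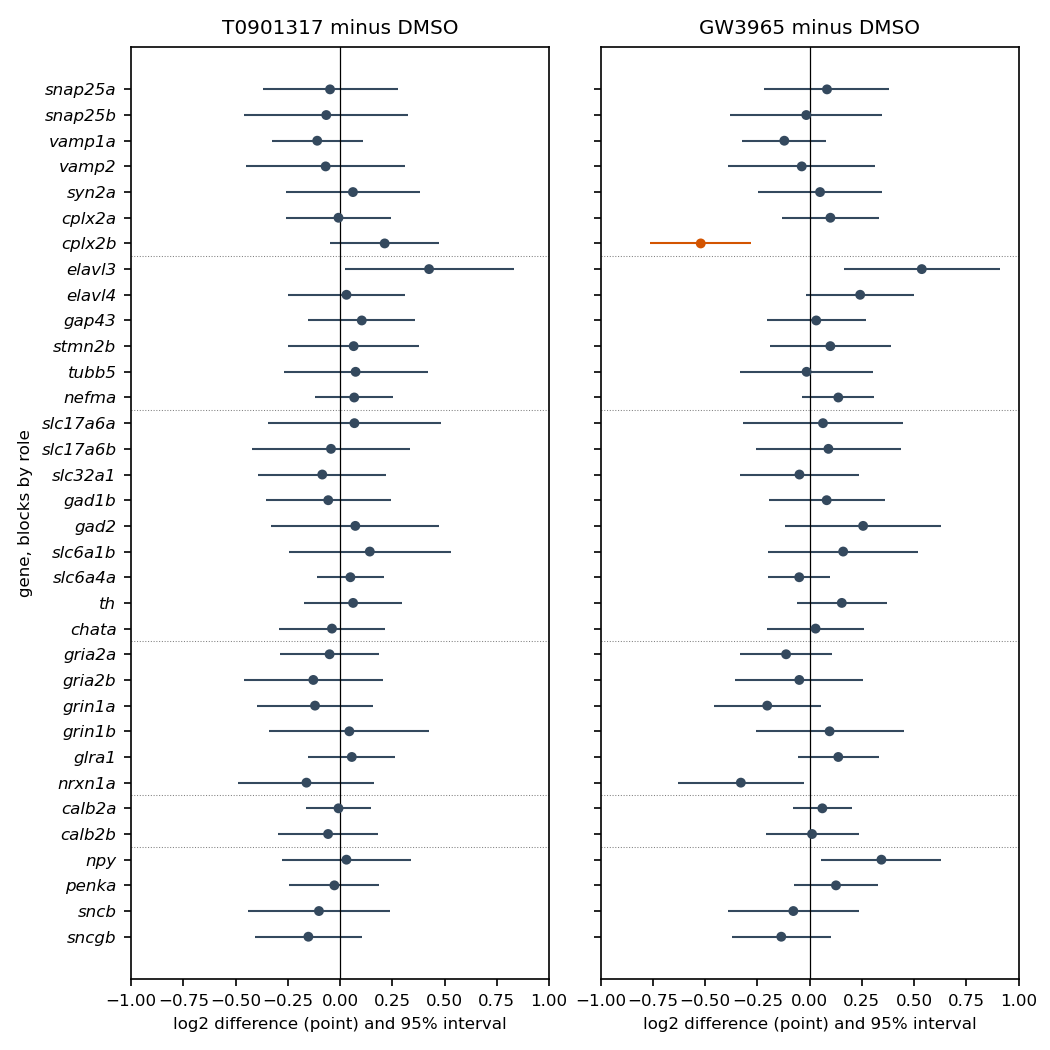
Log2 difference with its 95% confidence interval for each of the 34 genes, in blocks by role, for T0901317 minus DMSO (left) and GW3965 minus DMSO (right). The 1 called gene, cplx2b at -0.52 in GW3965 larvae, is drawn in orange, and the points of the left panel lie between -0.16 and 0.43.

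Among the arrays, 2 stood apart from their groups for these genes. On T0901317 replicate 3 the median gene lay at -0.20 from the DMSO mean (log2), whereas T0901317 replicates 1 and 4 lay at 0.05 and 0.11. The GW3965 arrays lay at 0.00, 0.11, -0.02 and 0.06. DMSO replicate 1 lay at -0.27, and the other DMSO arrays at 0.09, 0.07 and 0.12. Of the 34 genes, 31 had their lowest T0901317 value on replicate 3, where 37.1% of all genes did, and 29 had their lowest DMSO value on replicate 1, where 28.3% of all genes did.

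**Figure D2:**
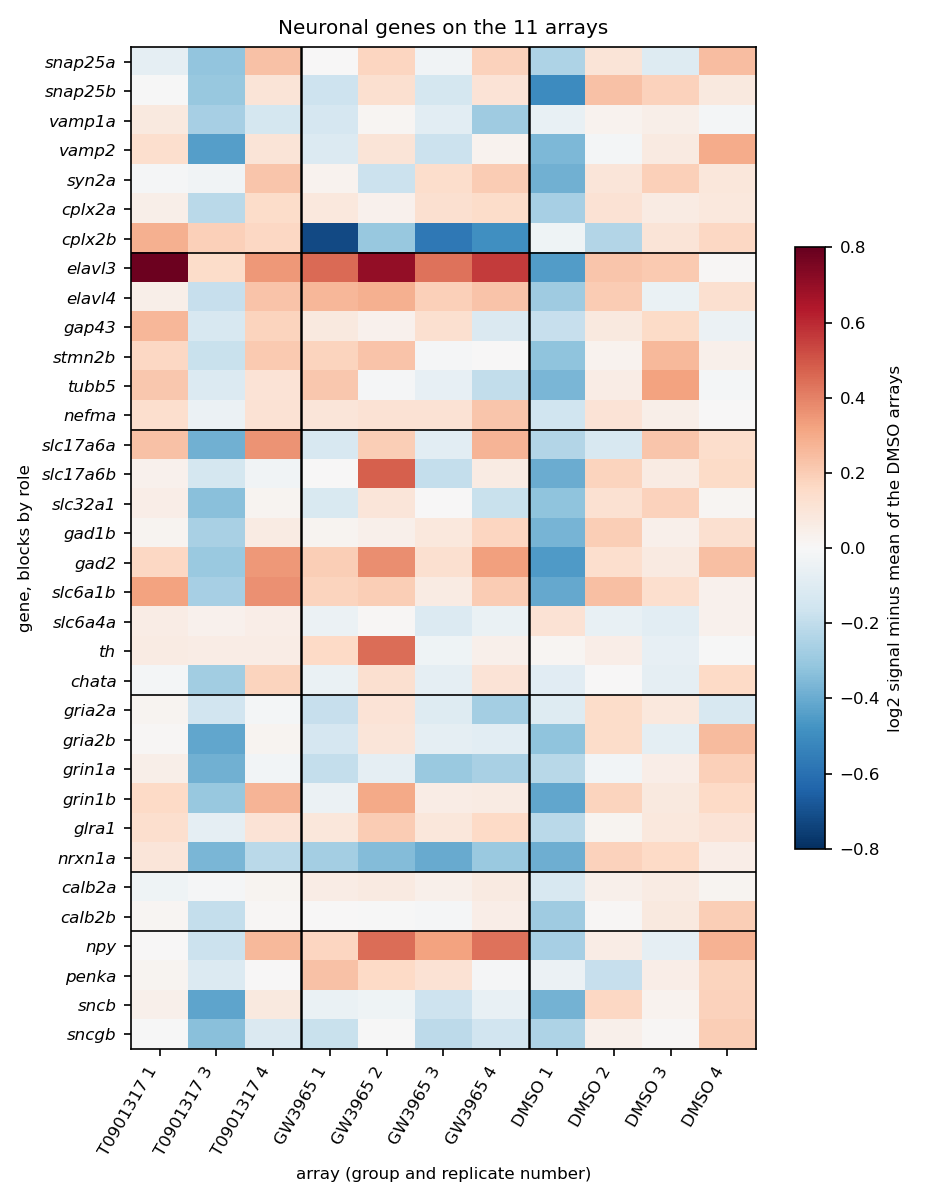
Colour map of the log2 signal of each of the 34 genes (rows, in blocks by role) on each of the 11 arrays (columns), minus its mean over the DMSO arrays; red is higher and blue lower. The columns of T0901317 replicate 3 and DMSO replicate 1 are mostly blue, with medians of -0.20 and -0.27, and the cplx2b row is blue on all 4 GW3965 arrays.

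The same arrays were low in the photoreceptor list, with medians of -0.56 on T0901317 replicate 3 and -0.35 on DMSO replicate 1, and high in the skeletal muscle list, at 0.07 and 0.17. Low photoreceptor medians were also found where the 34 genes were not low, at -0.30 on T0901317 replicate 1 and -0.26 on GW3965 replicate 1. All 21 skeletal muscle markers with a probe were well above background on all 11 arrays. Their summed relative signal ranged over 5238.5 to 5634 in T0901317, 4908 to 5319 in GW3965 and 5255.5 to 6049 in DMSO larvae. Of the 21, 1 was called lower under T0901317 and 2 under GW3965 against DMSO, where 236 and 1056 of 23645 genes were. Of 20 photoreceptor markers, 19 were well above background on all 11 arrays. Their sums were 579 to 806 in T0901317, 683 to 834 in GW3965 and 639 to 888 in DMSO larvae. By gene, 17 of the 20 lay below DMSO under T0901317 (median -0.28) and 16 under GW3965 (median -0.11). Over all genes, 9698 and 11377 of 23645 did. All 20 were lower in T0901317 than in GW3965 larvae (median -0.18), where 11364 of all genes were. Against DMSO 1 of the 20 was called, higher under GW3965. The part of tissue makeup in the results was not tested.

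The number of positive differences moved with single arrays, and not only with these 2. In T0901317 against DMSO, 16 of 34 were positive, but 7 without DMSO replicate 1, 30 without T0901317 replicate 3 and 18 without both. There were also 9 without T0901317 replicate 4 and 15 to 23 when any other array of these groups was left out. In GW3965 against DMSO, 21 were positive, with 12 without DMSO replicate 1 and 19 to 24 without any other array of these groups. In T0901317 against GW3965, 10 were positive, with 23 without T0901317 replicate 3, 15 without GW3965 replicate 2 and 7 to 9 without any other array of these groups. With the replicate number as a block, 15 were positive in that contrast. None of these sets of signs carries a test.

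Of the synaptic vesicle genes, cplx2b, a complexin that binds the assembled SNARE complex and regulates calcium-triggered fusion, was the exception. Its relative signal was 2.22, 2.08 and 2.04 in T0901317 larvae, 1.1, 1.48, 1.23 and 1.30 in GW3965 larvae, and 1.78, 1.55, 1.96 and 2.04 in DMSO larvae. Every GW3965 array lay below every DMSO array and every T0901317 array, while the T0901317 arrays reached down to the highest DMSO array. The difference was -0.52 ± 0.11 in GW3965 against DMSO (limma, adjusted p = 0.0207), 0.73 ± 0.12 in T0901317 against GW3965 (adjusted p = 0.00361) and 0.21 ± 0.12 in T0901317 against DMSO (adjusted p = 0.466). These are folds of 0.697, 1.66 and 1.16. The call in GW3965 against DMSO ended when DMSO replicate 3 or 4, GW3965 replicate 1 or 3, or DMSO replicate 1 and T0901317 replicate 3 together were left out, with adjusted p = 0.0611, 0.0565, 0.0540, 0.0626 and 0.0567. The gene rests on 1 probe.

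The related cplx2a was not called. It had 5.36, 4.46 and 5.74 in T0901317 larvae, 5.50, 5.32, 5.67 and 5.74 in GW3965 larvae, and 4.32, 5.63, 5.43 and 5.49 in DMSO larvae. Its groups overlapped, with the lowest value of each of T0901317 and DMSO on the 2 low arrays. The vesicle SNARE gene vamp1a had 13.6, 10.7 and 11.7 in T0901317 larvae, 11.7, 13.0, 12.2 and 10.6 in GW3965 larvae, and 12.4, 13.1, 13.3 and 12.7 in DMSO larvae. It lay at -0.11 in T0901317 and -0.12 in GW3965 against DMSO, and its groups overlapped. The 7 vesicle genes as a group had medians of -0.05 and -0.02 against DMSO under T0901317 and GW3965, the members being the VAMP, SNAP-25, complexin and synapsin genes.

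**Figure D3:**
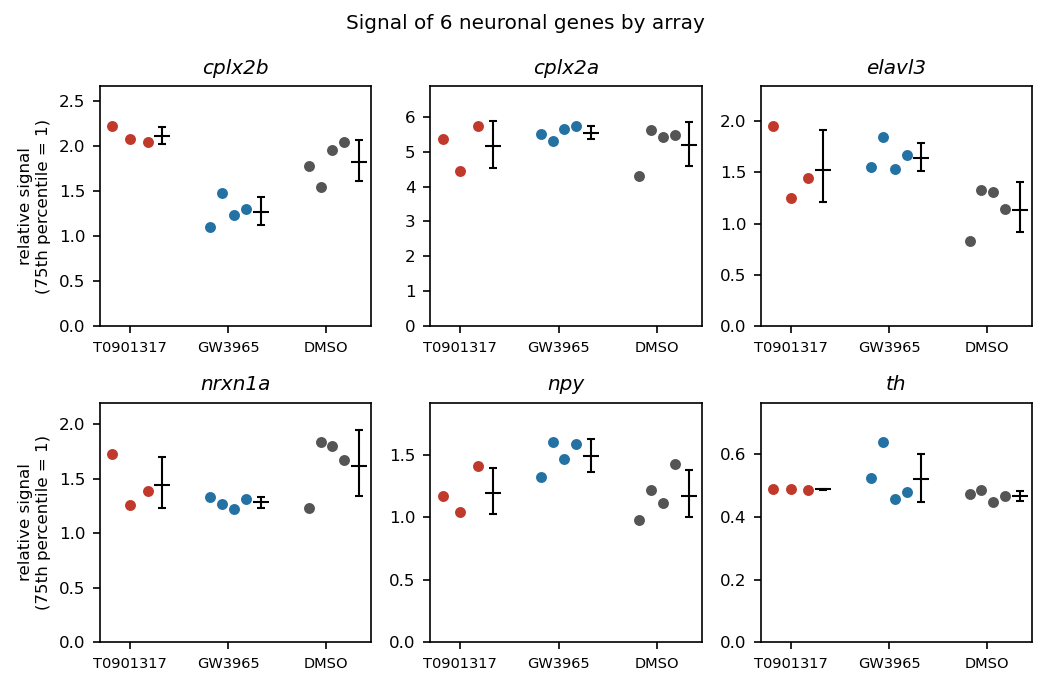
Relative signal (1 is the 75th percentile of the array) of 6 genes on each array, 1 point per array, with T0901317 at the left, GW3965 in the middle and DMSO at the right of each panel; bars give the mean and SD of the log2 values, drawn back on the linear axis. For cplx2b the 4 GW3965 arrays, 1.1 to 1.48, lie below all DMSO arrays, 1.55 to 2.04.

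Neuronal cytoskeleton and RNA-binding genes include elavl3, whose product HuC is a widely used pan-neuronal marker in zebrafish, and elavl4, its relative HuD. The relative signal of elavl3 was 1.95, 1.25 and 1.44 in T0901317 larvae, 1.55, 1.84, 1.53 and 1.67 in GW3965 larvae, and 0.833, 1.32, 1.31 and 1.14 in DMSO larvae. All GW3965 arrays were above all DMSO arrays, and the T0901317 arrays overlapped both groups. It did not pass the test, at 0.54 ± 0.17 in GW3965 (adjusted p = 0.103) and 0.43 ± 0.18 in T0901317 against DMSO (adjusted p = 0.307).

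For elavl4 the values were 6.46, 5.50 and 7.30 in T0901317 larvae, 7.49, 7.60, 7.12 and 7.33 in GW3965 larvae, and 5.13, 7.2, 6.02 and 6.83 in DMSO larvae. The GW3965 arrays were tightly spaced and overlapped the DMSO arrays only at 7.12 and 7.2 (0.24 ± 0.12, adjusted p = 0.288). This was the brightest of 3 elavl4 probes, which ran over -0.03 to 0.24 in GW3965 against DMSO. The neurofilament medium chain gene nefma had 1.24, 1.1 and 1.23 in T0901317 larvae, 1.21, 1.23, 1.23 and 1.32 in GW3965 larvae, and 1.02, 1.22, 1.17 and 1.14 in DMSO larvae. Its groups overlapped, and its 2 probes lay at -0.13 and 0.14 in GW3965 against DMSO. All 6 genes of this group, which also holds gap43, stmn2b and tubb5, had positive differences in T0901317 against DMSO (median 0.07). In GW3965 against DMSO 5 of 6 did (median 0.12), and none was called in either contrast. Over all genes, 13947 and 12268 of 23645 were positive in these contrasts. Each of the 6 had its lowest DMSO value on replicate 1, which raises both sets of differences. Each also had its lowest T0901317 value on replicate 3, which lowers the T0901317 set. These arrays thus move the differences. Without DMSO replicate 1, the T0901317 differences of elavl4, stmn2b and tubb5 turned negative. So did the GW3965 differences of gap43 and stmn2b, beside that of tubb5, which was already negative. The signs without T0901317 replicate 3 were not counted for these genes, and the signs carry no test. The 3 tubb5 probes ran over -0.06 to 0.07 in T0901317 against DMSO and -0.39 to -0.01 in GW3965 against DMSO. In T0901317 against GW3965 they ran over -0.04 to 0.40.

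Transmitter genes covered glutamate (slc17a6a and slc17a6b, vesicular glutamate transporters), GABA and glycine (gad1b, gad2, slc32a1, slc6a1b), serotonin (slc6a4a), catecholamines (th) and acetylcholine (chata). Of 9 genes, 5 had positive differences under T0901317 and 7 under GW3965 against DMSO, with medians of 0.05 and 0.08, and none was called. The gene of tyrosine hydroxylase, th, the first enzyme of catecholamine synthesis, had 0.488, 0.486 and 0.486 in T0901317 larvae, 0.521, 0.636, 0.455 and 0.479 in GW3965 larvae, and 0.471, 0.484, 0.446 and 0.464 in DMSO larvae. It was the 1 gene of 34 whose T0901317 and DMSO arrays did not overlap, where 12.5% of all genes did not overlap. The gap was small, and the test was not passed. The brightest of the 3 th probes, used here, lay at 0.06 in T0901317 against DMSO, and the others at -0.12 and -0.06.

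The serotonin transporter gene slc6a4a had 0.904, 0.891 and 0.903 in T0901317 larvae, 0.841, 0.874, 0.805 and 0.838 in GW3965 larvae, and 0.939, 0.832, 0.818 and 0.891 in DMSO larvae. Its T0901317 arrays were all above its GW3965 arrays, as were those of cplx2b, and those of calb2a were all below. These were 3 of 34 genes, where 15% of all genes did not overlap between the agonists. In GW3965 against DMSO, cplx2b and elavl3 were the 2 of 34 without overlap, where 14.5% of all genes were.

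The gene gad2 encodes a GABA-synthesising glutamate decarboxylase. On its brightest probe it had 7.49, 5.43 and 8.48 in T0901317 larvae, 7.64, 8.62, 7.30 and 8.37 in GW3965 larvae, and 4.88, 7.33, 7.01 and 7.89 in DMSO larvae. These groups overlapped (0.26 ± 0.17 in GW3965 against DMSO, adjusted p = 0.451). The gene has 9 probes, and they disagreed. A comparison chosen after the values were seen is that of probes A_15_P699426 and A_15_P751896 with the other 7.

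Probe A_15_P699426 had 0.706, 0.619 and 0.793 in T0901317 larvae, 0.383, 0.362, 0.378 and 0.418 in GW3965 larvae, and 0.719, 0.869, 1.02 and 1.02 in DMSO larvae. Probe A_15_P751896 had 0.406, 0.293 and 0.405 in T0901317 larvae, 0.160, 0.158, 0.149 and 0.165 in GW3965 larvae, and 0.324, 0.344, 0.409 and 0.395 in DMSO larvae. On both probes every GW3965 array was below every other array. With every probe tested on its own, 0 of 76 probes passed in T0901317 against DMSO, 3 in GW3965 against DMSO and 3 in T0901317 against GW3965, where 2.54%, 5.38% and 4.4% of all probes did. These were the cplx2b probe and this pair. The pair differed by -1.22 ± 0.12 and -1.21 ± 0.12 in GW3965 against DMSO (limma, adjusted p = 0.000414 and 0.000334), and the other 7 lay between -0.07 and 0.26 with none called. What these probes detect was not tested.

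**Figure D4:**
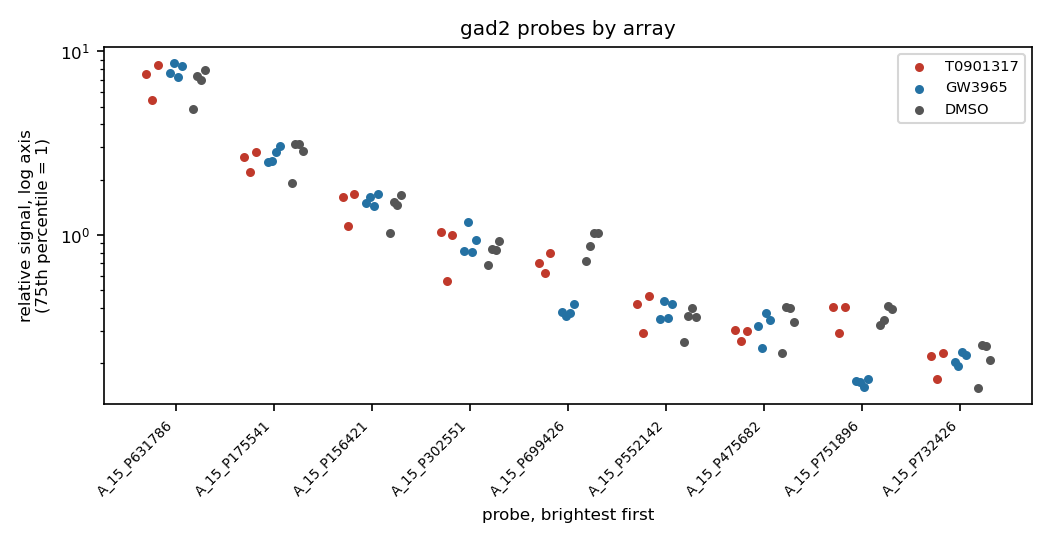
Relative signal of the 9 gad2 probes on each array, on a log axis, with the brightest probe at the left; points are arrays, coloured by group. On A_15_P699426 and A_15_P751896 the GW3965 points (0.362 to 0.418 and 0.149 to 0.165) lie below all others of that probe, and on the other 7 probes the groups mix.

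Receptor and adhesion genes were led by nrxn1a, a presynaptic neurexin that binds postsynaptic partners. Its relative signal was 1.73, 1.26 and 1.39 in T0901317 larvae, 1.34, 1.27, 1.22 and 1.32 in GW3965 larvae, and 1.23, 1.83, 1.80 and 1.68 in DMSO larvae. The GW3965 arrays lay below 3 of the 4 DMSO arrays and overlapped the low DMSO replicate 1. The difference was -0.33 ± 0.14 (adjusted p = 0.213) with all arrays, -0.46 (adjusted p = 0.0412) without DMSO replicate 1 and -0.46 (adjusted p = 0.0263) without both low arrays. The low arrays were picked by the values of the genes described here. DMSO replicate 1 held the lowest DMSO value of nrxn1a, so leaving it out had to lower the difference. These 2 adjusted p-values are therefore no support for a difference. With all arrays its 4 probes ran over -0.59 to 0.18, with 2 positive and 0 called.

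The obligatory NMDA receptor subunit gene grin1a had 5.77, 4.27 and 5.52 in T0901317 larvae, 4.90, 5.33, 4.56 and 4.67 in GW3965 larvae, and 4.80, 5.51, 5.79 and 6.37 in DMSO larvae. Its groups overlapped (-0.20 ± 0.12 in GW3965 against DMSO, adjusted p = 0.376). The glycine receptor gene glra1 had 0.639, 0.553 and 0.627 in T0901317 larvae, 0.621, 0.670, 0.621 and 0.649 in GW3965 larvae, and 0.501, 0.591, 0.617 and 0.628 in DMSO larvae. Its groups overlapped too. The 6 genes of this group, with the AMPA receptor genes gria2a and gria2b, had medians of -0.09 under T0901317 and -0.08 under GW3965 against DMSO.

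Both calcium-binding genes encode calretinin, a buffer used as a marker of neuron subsets. For calb2a the values were 20.8, 21.2 and 21.6 in T0901317 larvae, 22.2, 22.4, 22.0 and 22.4 in GW3965 larvae, and 19.5, 22.0, 22.4 and 21.6 in DMSO larvae. For calb2b they were 10.3, 8.92 and 10.2 in T0901317 larvae, 10.2, 10.2, 10.1 and 10.6 in GW3965 larvae, and 8.37, 10.3, 10.7 and 11.7 in DMSO larvae. Both agonist groups overlapped DMSO for both genes, and the differences against DMSO lay between -0.06 and 0.06.

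Among peptide and synuclein genes, npy, which encodes the appetite-stimulating neuropeptide Y, had 1.18, 1.04 and 1.41 in T0901317 larvae, 1.33, 1.60, 1.47 and 1.59 in GW3965 larvae, and 0.978, 1.22, 1.12 and 1.43 in DMSO larvae. The GW3965 arrays overlapped DMSO only through DMSO replicate 4. Neither the difference in GW3965 against DMSO (0.34 ± 0.13, adjusted p = 0.173) nor that in T0901317 against GW3965 (-0.31 ± 0.14, adjusted p = 0.364) passed the test.

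The proenkephalin gene penka had 1.76, 1.61 and 1.74 in T0901317 larvae, 2.04, 1.94, 1.88 and 1.72 in GW3965 larvae, and 1.68, 1.52, 1.80 and 1.96 in DMSO larvae. The gamma-synuclein gene sncgb had 11.4, 9.13 and 10.6 in T0901317 larvae, 10.2, 11.5, 9.94 and 10.3 in GW3965 larvae, and 9.68, 11.8, 11.6 and 13.2 in DMSO larvae. The groups of both genes overlapped. The remaining 17 of the 34 genes lay between -0.13 and 0.14 in T0901317 against DMSO, -0.11 and 0.16 in GW3965 against DMSO, and -0.14 and 0.09 in T0901317 against GW3965, with no unadjusted p below 0.2825.

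A wider list of 347 genes, drawn up by the same neuronal roles with earlier results of these data known, had 202 with a probe and 196 tested. The arrays held RNA of whole larvae, so the tissue behind each signal is not known. In T0901317 against DMSO larvae 2 were higher and 2 lower, with a median of 0.01. These were 2.04% of the list, beside 2.58% of all genes. In GW3965 against DMSO 1.53% of the list was called, beside 5.69% of all genes. In T0901317 against GW3965 it was 1.02% beside 5.4%. The list was thus called no more often than genes in general. The hypothalamic peptide gene npvf was lower in T0901317 against DMSO larvae, by 0.54 ± 0.09 (adjusted p = 0.00990). There gnrh2, of the midbrain gonadotropin-releasing hormone, was higher by 1.04 ± 0.20 (adjusted p = 0.0262). Under GW3965 gnrh2 lay at 0.68 ± 0.19 (adjusted p = 0.0641), a value that was called in 6 of 23 other settings, and its difference between the agonists was not called (0.36 ± 0.20, adjusted p = 0.519). The nicotinic receptor gene chrna7a was higher in T0901317 against DMSO larvae by 0.55 ± 0.13 (adjusted p = 0.0463), but by 0.18 (adjusted p = 0.335) with normexp background correction. In the same contrast the GABA-A receptor gene gabra6a was lower, at -0.59 ± 0.14 (adjusted p = 0.0496).

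In GW3965 against DMSO larvae 1 was higher and 2 lower, with a median of 0.06. They were slc1a1, a glutamate transporter gene (0.35 ± 0.07, adjusted p = 0.0180), npvf (-0.45 ± 0.08, adjusted p = 0.00819) and ddc, of aromatic amino acid decarboxylase (-0.45 ± 0.09, adjusted p = 0.0115). The call of ddc stood in all 23 other settings, but its 8 probes ran over -1.16 to 0.06. In T0901317 against GW3965 larvae chrna7a (0.61 ± 0.13, adjusted p = 0.0154) and comta (0.55 ± 0.14, adjusted p = 0.0390), a catechol methyltransferase gene, were higher and none was lower. With normexp, chrna7a lay at 0.27 against GW3965 and its call ended (adjusted p = 0.0846). The T0901317 call of gnrh2 ended with a replicate block (adjusted p = 0.0522) and with these 2 groups alone (adjusted p = 0.0918). Leaving out 1 array ended the calls of gnrh2 under T0901317 (DMSO replicate 2 or 3, T0901317 replicate 1 or 4) and slc1a1 (GW3965 replicate 3). It also ended those of chrna7a against GW3965 (T0901317 replicate 1 or 4) and comta (any GW3965 array, T0901317 replicate 1 or 4, DMSO replicate 3 or 4). The calls of npvf ended with T0901317 replicate 2 put back, with adjusted p = 0.203 under T0901317 and 0.127 under GW3965. The slc1a1 call ended there too (adjusted p = 0.0613). With these 2 groups alone the T0901317 call of npvf also ended (adjusted p = 0.0558). The calls of chrna7a and gabra6a against DMSO ended in 15 and 16 of 23 other settings.

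**Figure D5:**
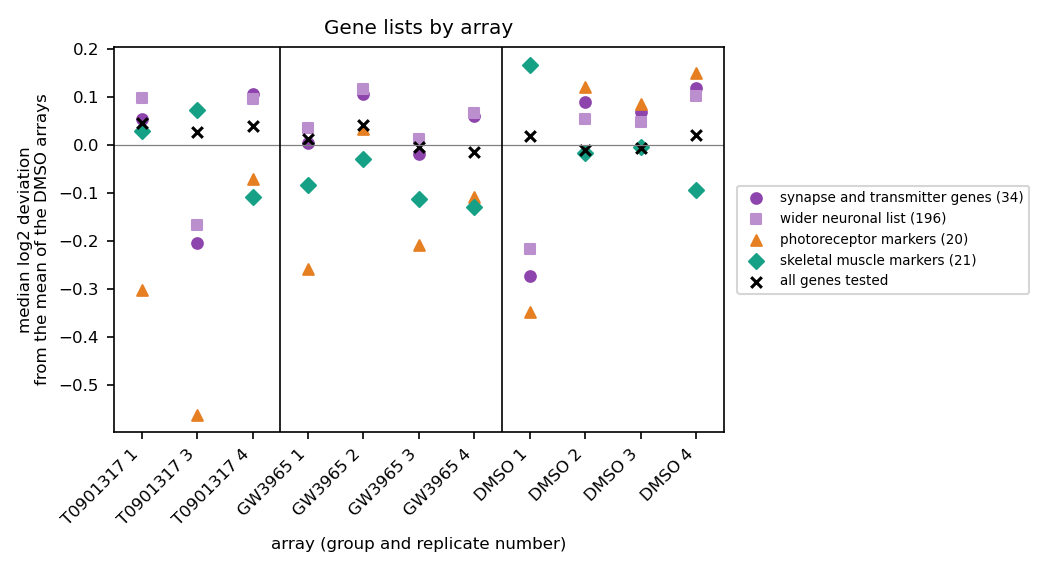
Median log2 deviation from the DMSO mean on every array for the 34 genes, the wider neuronal list, photoreceptor and skeletal muscle markers and all genes tested. The 2 neuronal lists are lowest on DMSO replicate 1 and T0901317 replicate 3, at -0.27 and -0.20 for the 34 genes.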

How the data were processed

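RNA of whole zebrafish larvae was measured on 1-colour Agilent arrays, 12 in 3 groups. The deposited files hold the authors' scanner output from Agilent Feature Extraction 11.0.1.1, per the file headers; the value used, per the file headers, is the background-subtracted processed intensity of each spot. The deposited series table equals these values when both are put on a log2 scale (largest log2 difference 0), and was not analysed a second time. Array designs name the danRer6 build; no coordinates are used.

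Control spots and outlier spots (4 to 40 per array) were left out and spots of a probe averaged. The log2 intensity was reduced by the 75th percentile of each array, which was 330 to 388 on the 11 arrays used. Probes well above background on at least 3 arrays were kept, and the brightest probe stood for a gene. Of 43603 probes, 25069 were named through RefSeq accessions (assembly GRCz12tu, names only). Tests used limma 3.58.1 in R 4.3.3 (lmFit, eBayes) over the 3 groups, with 8 residual degrees of freedom. The code was also run on simulated arrays with independent noise. The differences planted there were larger than any that the 34 genes showed. That run therefore does not measure the sensitivity to differences of their size. The number of arrays limits the precision.

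The labels call the samples biological replicates. The genes and lists were chosen with earlier results of these data known. Values are given per array for called genes and for up to 3 genes per role with the smallest p. Deviations of same-numbered T0901317 and GW3965 arrays correlated at 0.13, 0.28 and 0.50, which meets the criterion for pairing (each over 0.1); with DMSO, 1 pair each lay at 0.03 and 0.04, which does not. All values printed come from the fit without a replicate block unless the block is named. Alternatives were normexp background correction, other scalings, no filter, other probe rules, 2 groups only, a replicate block, T0901317 replicate 2 included and leaving out each array.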

Additional observations from a re-analysis of the deposited data

Results flagged for a closer look

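In 4 of 68 groups of 4 arrays, 1 array lay far from the others; chance gives about 1 in 20. The lowest DMSO value of cplx2a was 4.32 on replicate 1, against 5.43 to 5.63 on the others. The lowest DMSO value of grin1b, an NMDA receptor subunit gene, was 2.35 on replicate 1, against 3.32 to 3.55. The lowest GW3965 value of slc6a1b, a GABA transporter gene, was 30.2 on replicate 3, against 32.8 to 33.3. The highest GW3965 value of calb2b was 10.6 on replicate 4, against 10.1 to 10.2.

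The effects of the agonists against the shared DMSO arrays differed by a test of T0901317 against GW3965 for cplx2b (0.734 in log2), comta (0.552) and chrna7a (0.607). Of all genes 5.4% were called in this contrast, in which labelled dose and slide differ too. The calls of comta and chrna7a ended under several other settings.

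On T0901317 replicate 2, which the submitters left out, 9 of the 34 genes (26.5%) lay above all 4 DMSO arrays, where 49.7% of all genes did, so the count is no mark of these genes. There chata, of choline acetyltransferase, was 0.527, with highest values of 0.343 on the other T0901317 arrays and 0.338 on DMSO arrays. On the same array gria2a was 0.375, with highest values of 0.138 on the other T0901317 arrays and 0.150 on DMSO arrays. That array had 89.7% of spots well above background, against 78.7% to 83.1% on the others.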

How the results depend on the processing

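Of 2346 differences of the 34 genes recomputed under 23 settings, 2339 kept their side of the threshold, and no called difference reversed. The 5 calls lost were of cplx2b in GW3965 against DMSO. The 2 gained were of nrxn1a in that contrast, both without DMSO replicate 1, which held its lowest DMSO value. In T0901317 against DMSO the number of the 34 genes called was 0 under every setting. In GW3965 against DMSO it was 1, with 0 to 2 when 1 array was left out, and in T0901317 against GW3965 it was 1. When every probe was tested, 3 of 76 probes were called in each of these contrasts, the cplx2b probe and 2 gad2 probes. Counts with every probe in this paragraph are of probes and not of genes. The median over the 34 genes ran over -0.07 to 0.08, -0.04 to 0.09 and -0.11 to 0.07 in the 3 contrasts when 1 array was left out. In the wider list, T0901317 against DMSO gave 4 calls, but 2 with no filter on dim probes, 8 with every probe, 1 with the replicate block, 2 with T0901317 replicate 2 included, 0 with the 2 groups alone, 2 without both low arrays (a setting chosen after seeing the data) and 1 to 3 without 1 array. GW3965 against DMSO gave 3, but 12 with every probe, 1 with the excluded array, 5 with a trended robust fit, 5 without both low arrays and 2 to 4 without 1 array. In settings that kept the count near 3, gnrh2 was gained with normexp (adjusted p = 0.0133), with the filter on all arrays (0.0496) and with the mean over probes (0.0376), where slc1a1 was lost (0.0990). T0901317 against GW3965 gave 2 (comta and chrna7a), but 1 each with normexp, no filter, 2 groups alone (neither of the pair) and scaling by the median bright probe, 4 with every probe and 0 to 3 without 1 array. The replicate block changed no call of the 34 genes, with 0, 1 and 1 called in the 3 contrasts. Over all genes, T0901317 against DMSO gave 610 calls (271 with 2 groups alone), GW3965 against DMSO 1345 (697 with the excluded array) and T0901317 against GW3965 1276 (807 with normexp). The cause of these changes was not tested. A slide block could not be fitted, since each slide held 1 group.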

Other observations

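Among markers of cells that neighbour neurons, 2 of 15 radial glia and astroglia genes were higher under each agonist and none lower, where 1.58% of all genes were higher under T0901317 and 1.22% under GW3965. The brain fatty acid-binding protein gene fabp7a, a radial glia marker, was higher by 1.31 ± 0.12 under T0901317 and by 1.15 ± 0.11 under GW3965 (log2 ± SE against DMSO), and fabp7b by 0.37 and 0.32, each past limma's adjusted threshold. Without fabp7a, the summed relative signal of the other 14 genes was 222 to 263 in T0901317, 226 to 253 in GW3965 and 200.1 to 235 in DMSO larvae, and the groups overlapped. Over all 15 genes the median difference was 0.14 under T0901317 and 0.12 under GW3965, beside 0.04 and 0.01 over all genes. An unadjusted limma p under 0.05 was found for 33.3% and 20% of the 15, beside 14.9% and 19.6% of all genes. Of the 14 genes without fabp7a, 4 lay below DMSO under T0901317 and 5 under GW3965. Among these lower genes were gfap, the astroglial filament gene, at -0.03 and -0.15, and aqp4, a water channel gene, at -0.16 and -0.18. None of 9 oligodendrocyte and none of 18 neural progenitor genes passed limma's test in either contrast with DMSO. Of all genes, 2.58% and 5.69% passed under T0901317 and GW3965. An unadjusted p under 0.05 was found for 3 and 1 of the 9, and for 0 and 3 of the 18. The oligodendrocyte sums were 21.2 to 22.5 in T0901317, 21.0 to 22.0 in GW3965 and 19.6 to 20.7 in DMSO larvae. By this sum both agonist groups lay above DMSO, which was not tested. By gene, 3 of the 9 lay below DMSO under each agonist. The median differences were 0.09 under T0901317 and 0.07 under GW3965, beside 0.04 and 0.01 over all genes. The progenitor sums were 89.4 to 93.4, 92.5 to 97.9 and 81.5 to 92.6, and overlapped.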
